A study of Mus musculus with 3 samples.

Results

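The cells described here are 88 mouse neutrophils caught by their granule transcripts in a single-cell experiment on brain immune cells. They were 88 of 4668 cells in all, and 88 of the 627 cells in clusters 3 and 6 of the authors' deposited clustering, which hold the CD45-tagged immune cells. A cell was taken when the transcripts of Camp, Ngp, Ltf, S100a8 and S100a9 together made up at least 100 of each 10000 unique molecular identifiers (UMIs, the labels that mark single RNA molecules) in the cell. At most 1 of 5 T cell genes (Cd3d, Cd3e, Cd3g, Trac, Trbc2) and at most 2 of 7 microglia genes (Tmem119, P2ry12, Cx3cr1, Fcrls, Gpr34, Siglech, Olfml3) could be above 0. The 5 granule genes therefore chose the cells, and their levels are given as a description with no test.

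The series used CITE-seq, in which antibodies carrying DNA barcodes report surface proteins in the same droplets as the RNA. It held cells of 4 brains of female C57BL/6 mice aged 2 to 3 months, either naive or with established metastases about 2 weeks after carotid injection of the E0771 line, a mouse breast cancer. Brains were flushed with saline, taken apart with papain, and their mononuclear cells were enriched by Percoll centrifugation. Each brain was stained with 6 antibodies and its own hashtag antibody, and all were loaded as 1 pool on the 10x Genomics 3' assay. The sources used here do not say which hashtags were naive and which were metastatic, so brains are named by hashtag and no comparison of the conditions was made.

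Neutrophils load their granules in waves while they mature in the bone marrow. Azurophil granule proteins such as myeloperoxidase and the serine proteases are made first, in promyelocytes. Specific granule proteins such as lactoferrin and the cathelicidin Camp follow in myelocytes and metamyelocytes, and gelatinase granule and secretory vesicle proteins come last. The transcription factor C/EBP epsilon drives the specific granule wave. Cells in the blood and in tissue carry the proteins but little of the early granule mRNA, so granule transcripts report the stage of a cell.

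The hashtag 1 brain gave 60 of the 88 neutrophils, the hashtag 3 brain 16, the hashtag 4 brain 12 and the hashtag 2 brain 0. Among immune cells this was 60 of 192 in the hashtag 1 brain, or 31.25% (exact Clopper-Pearson 95% interval 24.8% to 38.3%). It was 16 of 181 or 8.84% (5.14% to 13.96%) in the hashtag 3 brain and 12 of 211 or 5.69% (2.97% to 9.72%) in the hashtag 4 brain. In the hashtag 2 brain it was 0 of 43, with an exact upper bound of 8.22% (3 counts of the 43 would be 6.98%). The interval of the hashtag 1 brain lay wholly above the others, and those of the hashtag 3 and hashtag 4 brains overlapped. As shares of all cells, neutrophils made up 7.11% with hashtag 1, 1.16% with hashtag 3 and 0.591% with hashtag 4. These intervals cover counting error only, and each brain is 1 animal.

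**Figure D1:**
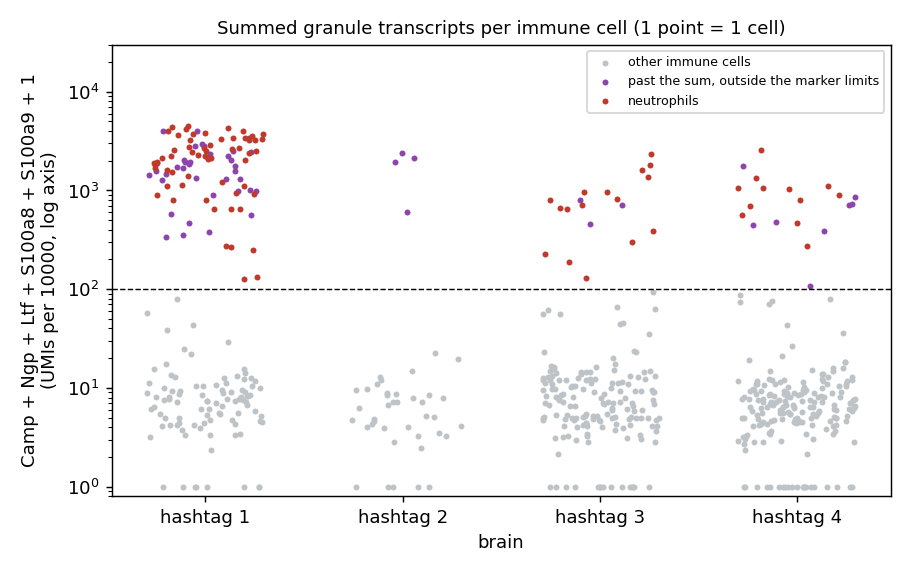
Summed transcripts of Camp, Ngp, Ltf, S100a8 and S100a9 plus 1, per 10000 UMIs on a log axis, in each immune cell of the 4 brains. Points above the dashed line pass the sum of 100; red points are the 88 neutrophils, purple points the 52 cells left out by the limits on T cell and microglia genes, and grey points other immune cells.

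Above the sum stood 140 immune cells, of which 52 were left out by the marker limits. More than 2 microglia genes were seen in 46 of them and more than 1 T cell gene in 14, with 8 in both counts. By hashtag these were 37, 4, 3 and 8 cells, so that every cell of the hashtag 2 brain above the sum was left out. Their granule transcripts were plentiful, with a median sum of 1459 against 1618 in the neutrophils. Without the marker limits the share would be 50.5% with hashtag 1 and 9.30% with hashtag 2, an alternative added after the data had been seen. The absence of neutrophils from the hashtag 2 brain thus holds only with these limits.

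The sum of 100 fell in a sparse stretch of the distribution. Among cells within the marker limits, the lowest sums inside the rule were 126.4, 129.7 and 130.6, and the highest outside were 85.5, 77.7 and 72.8. All 5 granule genes were seen in 73 of the 88 cells, 4 in 9 cells and 3 in 6 cells. By protein, 77 of the 88 had more counts of the tag for CD45, the leukocyte surface marker, than 1099, the 95th percentile of cells outside clusters 3 and 6, where the median was 44. The other 11 lay within that range.

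UMI totals of the neutrophils ran from 2495 to 16436, with medians of 3719, 4697.5 and 3413.5 in the brains with hashtags 1, 3 and 4, against 9472 over all cells of the table. No doublet caller was run, and no cell barcode occurred more than once. At least 80% of the hashtag counts came from the cell's own hashtag in 47 of 60, 7 of 16 and 5 of 12 neutrophils. The median own share was 93.5%, 77.7% and 75.3%, against 95.3%, 95.9% and 97.6% in the other immune cells of the same brains. In the hashtag 3 and hashtag 4 brains, hashtag 1 was the second most frequent hashtag in 8 of 16 and 8 of 12 neutrophils, with medians of 8.29% and 13.3% of the counts. Among the other immune cells it was second in 56 of 165 and 122 of 199, with a median of 1.03% in both brains. The part of mixed or wrongly assigned droplets in their values was not tested. With cells of at least 80% own hashtag, the shares were 32.6%, 5.04% and 2.92%.

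Camp encodes the mouse cathelicidin, an antimicrobial peptide of specific granules. Its level in the hashtag 1 brain ran from 0 through a median of 258 to 777 per 10000 UMIs, with a UMI in 58 of 60 cells. It ran from 0 through 42.9 to 371 in the hashtag 3 brain and from 10.95 through 96.6 to 551 in the hashtag 4 brain. The brain means were 271, 81.2 and 127 (SD across cells 201, 113 and 143; n = 60, 16 and 12). Ngp, a secretory granule protein of the cystatin family, had means of 244, 85.3 and 113. Ltf, the iron-binding lactoferrin, had means of 25.2, 6.99 and 15.1. For all 3 genes the hashtag 1 brain had the highest mean and the ranges of single cells overlapped between brains.

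S100a8 and S100a9 encode the subunits of calprotectin, a metal-binding protein that fills the neutrophil cytoplasm. S100a8 averaged 1147 per 10000 UMIs with hashtag 1, 466 with hashtag 3 and 497 with hashtag 4. S100a9 averaged 548, 231 and 238. Both were seen in all 88 cells. As a gauge of free RNA in the droplets, among 880 choroid plexus-like cells, which should lack them, 78.6% had a UMI of S100a8 and 39.0% one of Camp, at a median of 7282.5 UMIs a cell. With every cell thinned to 2495 UMIs, the share with a UMI was 42.7% for S100a8 and 16.3% for Camp in these cells, against 100% and 94.3% in the neutrophils. The mean levels in the choroid plexus-like cells were 3.72 and 0.95 per 10000 UMIs, far under those of the neutrophils. The neutrophils were chosen by a sum that contains both genes, so their side of this comparison was largely set by the rule.

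Camp, Ngp and Ltf lie apart on mouse chromosome 9 (GRCm38, the build of the files), Camp at chr9:109847377-109849456, Ngp at chr9:110419808-110423012 and Ltf at chr9:111019292-111042766. S100a8 at chr3:90669071-90670034 and S100a9 at chr3:90692630-90695721 are neighbouring genes. Because specific granule genes are known C/EBP epsilon targets, the 250 bases before their RefSeq start sites were searched for the core TTNNGNAA on both strands (TTNCNNAA when read from the other strand), and overlapping matches were each counted. A match occurred in 36.85% of the 32851 windows of this length in the RefSeq table (GRCm38.p6), and 2 or more in 10.91%. The windows of the 4 genes that name the program are shown with matches in capitals. Camp lies at chr9:109849457-109849706 on the minus strand, Ngp at chr9:110419558-110419807, Ltf at chr9:111019042-111019291 and S100a8 at chr3:90668821-90669070 on the plus strand.
Camp: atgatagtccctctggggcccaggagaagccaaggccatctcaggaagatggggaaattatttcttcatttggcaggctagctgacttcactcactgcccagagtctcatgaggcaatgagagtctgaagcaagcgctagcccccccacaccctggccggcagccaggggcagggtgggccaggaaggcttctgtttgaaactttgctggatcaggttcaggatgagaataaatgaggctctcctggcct
Ngp: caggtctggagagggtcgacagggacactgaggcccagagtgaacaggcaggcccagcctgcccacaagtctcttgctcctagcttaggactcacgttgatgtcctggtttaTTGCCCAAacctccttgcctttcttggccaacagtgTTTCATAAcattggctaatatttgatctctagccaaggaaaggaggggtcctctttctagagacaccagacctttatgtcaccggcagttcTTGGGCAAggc
Ltf: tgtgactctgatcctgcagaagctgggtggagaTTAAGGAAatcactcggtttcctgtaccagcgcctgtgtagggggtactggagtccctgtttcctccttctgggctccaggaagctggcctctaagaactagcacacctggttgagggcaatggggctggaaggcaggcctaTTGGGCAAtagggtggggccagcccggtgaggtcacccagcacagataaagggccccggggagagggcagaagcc
S100a8: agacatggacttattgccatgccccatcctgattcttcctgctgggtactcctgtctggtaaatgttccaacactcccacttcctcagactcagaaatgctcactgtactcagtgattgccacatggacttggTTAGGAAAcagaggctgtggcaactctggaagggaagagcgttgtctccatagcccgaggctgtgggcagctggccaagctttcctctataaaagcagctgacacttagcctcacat
Ngp had 3 matches, which began at -138, -102 and -11 from the start site. Ltf had 2, at -217 and -75, and S100a8 had 1 at -117. The Camp window held no match, nor did those of Elane, Mpo and Prtn3. Of the other windows searched, Chil3 had 3 matches, S100a9 and Fcnb 2 each, and Lcn2 and Retnlg 1 each. A match is a description of letters, to be read beside the background rate given above, and the data hold no binding measurement.

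Each brain's neutrophils were next set beside the other immune cells of the same brain, for the 6559 genes seen in at least 5% of immune cells. At least 2-fold higher levels in all of the brains with hashtags 1, 3 and 4 were found for 38 genes, or 0.579% of those tested. At least 2-fold lower levels were found for 124 genes, or 1.89%. The median log2 difference over all tested genes was -0.34. Since the cells were chosen by RNA, these counts are descriptions.

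Of 19 measured specific granule genes, 11 were past 2-fold in every brain, with a median log2 difference of 1.87. Without the 3 of them used to choose the cells, it was 8 of 16 with a median of 1.82. Lcn2, lipocalin-2, which binds bacterial iron carriers, averaged 41.9, 15.9 and 19.8 per 10000 UMIs in the brains with hashtags 1, 3 and 4. The other immune cells averaged 8.87, 0.93 and 0.94. The peptidoglycan-binding protein gene Pglyrp1 averaged 25.9, 8.07 and 14.4 in neutrophils, with a mean log2 difference of 2.81 (SD 0.66 over 3 brains). Fcnb, ficolin-B, a lectin of immature marrow granulocytes, averaged 4.35, 1.88 and 3.86, with a mean log2 difference of 3.89 (SD 1.46). Chil3, a chitinase-like protein of immature granulocytes and some macrophages, averaged 21.4, 14.5 and 10.1, and differed by 2.16, 1.43 and 1.92 on the log2 scale.

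Hp (haptoglobin), Cd177, Mmp8 (neutrophil collagenase) and Anxa1 (annexin A1) were the other members past 2-fold in every brain. Mmp8 was at the edge, with log2 differences of 1.77, 1.01 and 2.64 from 76, 8 and 10 UMIs. Lyz2 (lysozyme), which macrophages also make, differed by 0.81, 1.09 and 0.09. Cybb, a subunit of the NADPH oxidase held in these granule membranes, differed by 1.48, 0.60 and 1.0.

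The differences were smaller in the hashtag 1 brain than in the others for most granule genes. For Camp they were 2.43, 5.53 and 5.43 on the log2 scale in the brains with hashtags 1, 3 and 4. The comparison cells of the hashtag 1 brain averaged 50.2 Camp per 10000 UMIs, against 1.66 and 2.85 in the other brains, and they include the 37 cells left out by the marker limits, which averaged 177. With the cells above the sum removed from the comparison, the Camp differences became 8.55, 6.18 and 7.42. The sum contains Camp, so this rise is set by construction. Lcn2, which is not in the sum, went from 2.23, 3.96 and 4.27 to 6.18, 4.55 and 5.25. The removed cells were picked by other granule genes, so the Lcn2 values are no independent check.

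**Figure D2:**
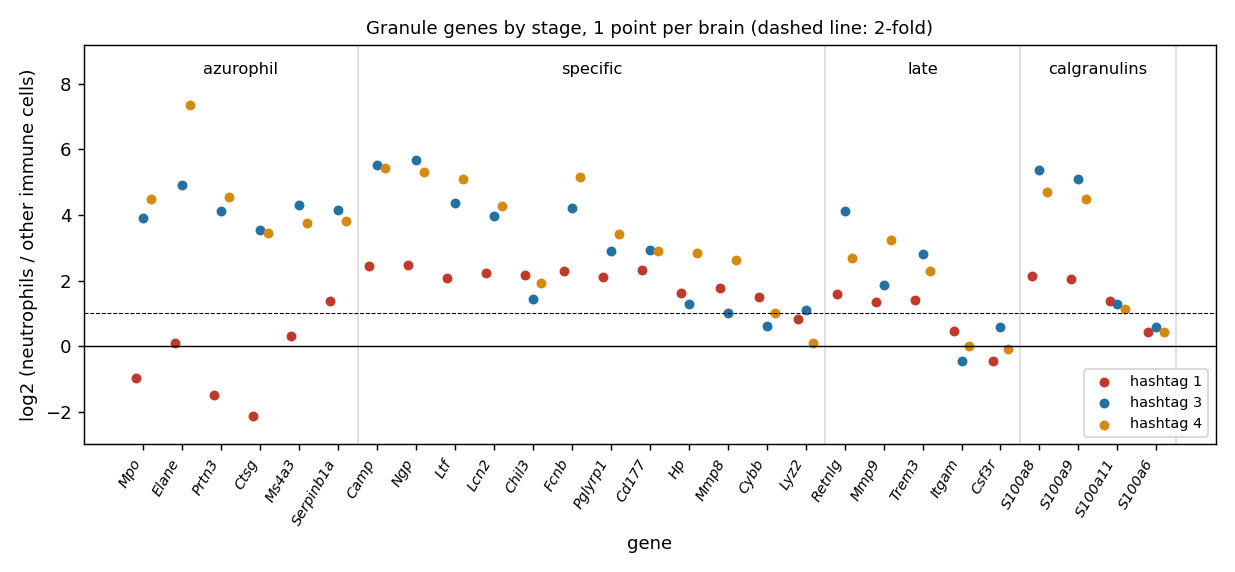
Log2 ratio of the mean level in neutrophils over that in the other immune cells of the same brain, with 1 point per brain for selected genes of the azurophil, specific and late lists and the calgranulins. Camp, Ngp, Ltf, Lcn2, S100a8 and S100a9 lie above the 2-fold line in every brain and Lyz2, Cybb and S100a6 do not, while Mpo, Elane, Prtn3 and Ctsg are split between the hashtag 1 brain and the others.

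Azurophil granule genes behaved differently between brains. Of 9 measured genes of the azurophil list, 1 was past 2-fold in every brain, with a list median log2 difference of 2.39. It was Serpinb1a, an inhibitor of neutrophil serine proteases, at 3.66, 3.47 and 3.55 per 10000 UMIs. Elane (neutrophil elastase) averaged 10.6 per 10000 UMIs in the hashtag 1 brain, 20.02 in the cells with hashtag 3 and 19.3 in those with hashtag 4. These means came from few cells, with a UMI in 14 of 60, 6 of 16 and 3 of 12. The hashtag 4 mean rests largely on a single cell at 210. Over all neutrophils the share with an Elane UMI was 26.1%, against 5% of choroid plexus-like cells (22.7% and 2.05% after thinning). Against the other immune cells Elane differed by 0.11, 4.92 and 7.37 on the log2 scale, and the hashtag 4 value rests on a comparison mean of 0.02. Mpo (myeloperoxidase) differed by -0.97, 3.9 and 4.49, Prtn3 (proteinase 3) by -1.48, 4.11 and 4.54, and Ctsg (cathepsin G) by -2.13, 3.55 and 3.46.

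The hashtag 1 brain also held 37 precursor cells, defined as immune cells outside the neutrophil rule with at least 3 of Mpo, Elane, Prtn3 and Ctsg above 0, against 1 in each of the hashtag 2 and hashtag 3 brains and 0 in the hashtag 4 brain. The rule kept 8, 5 and 1 cells that met this gene criterion as neutrophils, in the brains with hashtags 1, 3 and 4. The split between precursor cells and neutrophils, and the azurophil differences above, therefore depend on the rule. Elane averaged 34.1 and Mpo 20.5 per 10000 UMIs in the 37 cells, so the comparison cells of that brain carried these transcripts too. Camp averaged 11.4 in them, against 271 in the neutrophils of that brain. Prtn3 and Elane are neighbours on chromosome 10, at chr10:79879667-79883174 and chr10:79886312-79888216. Ms4a3, a membrane gene of granulocyte and monocyte progenitors, differed by 0.29, 4.30 and 3.77.

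Of 16 measured genes of gelatinase granules, secretory vesicles and late membrane proteins, 3 were past 2-fold in every brain, with a list median of 0.54. Without the hashtag 3 brain it was 7 of 16 with a median of 0.92, and with cluster 6 neutrophils only the median was 0.08 with 3 genes past 2-fold. Retnlg, a resistin-like secreted protein of neutrophils, averaged 68.3, 38.5 and 18.5 per 10000 UMIs. Mmp9, the gelatinase itself, averaged 2.00, 0.55 and 1.56, from 45, 4 and 9 UMIs. Trem3, a receptor of the TREM family, averaged 1.87, 1.53 and 1.39. The chemokine receptor Cxcr2, which releases mature neutrophils from marrow, had a UMI in 7 of 88 cells and was too sparse to be tested in this way. Csf3r, the receptor for the growth factor G-CSF, had a UMI in 12 of 88 and differed by -0.47, 0.59 and -0.08.

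Cebpe, which encodes C/EBP epsilon, was the 1 of 12 granulocyte transcription factors past 2-fold in every brain. It averaged 2.33, 1.24 and 1.32 per 10000 UMIs against 0.43, 0.06 and 0.06 in the other immune cells, and had a UMI in 42 of 88 neutrophils. The share was 0.568% among choroid plexus-like cells. Cebpb and Spi1, which monocytes share, differed by at most 0.68 and 0.33 in any brain. Ly6g, the surface marker used to sort mouse neutrophils, averaged 2.97, 0.98 and 1.69 and had a UMI in 42 of 88 cells.

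None of the 6 NADPH oxidase genes, the 17 glycolysis genes or the 13 complement, Fc and pattern receptors was past 2-fold in every brain, and their medians were 0.37, 0.11 and -0.16. Of 10 genes of extracellular traps and cytoplasmic enzymes, Lta4h, which makes leukotriene B4, was past 2-fold, with log2 differences of 1.20, 1.69 and 2.19. Of 15 genes used to mark suppressive neutrophils, Wfdc21 was past 2-fold at 52.0, 25.9 and 19.3 per 10000 UMIs. Its list had a median log2 difference of -0.00, and Wfdc21 is also a common transcript of healthy mouse neutrophils.

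Of 17 inflammatory genes, none was at least 2-fold higher in every brain. Socs3 was at least 2-fold lower in every brain, at a mean of only 0.049 per 10000 UMIs in neutrophils. The list had a median log2 difference of -0.56, against -0.34 over all tested genes. Il1b, encoding interleukin 1 beta, averaged 1.41, 1.89 and 6.41 per 10000 UMIs and differed by 0.53, -1.50 and 0.48. Of 10 neutrophil chemokine receptors and ligands, Ccl3 was at least 2-fold lower in every brain, at 1.79, 4.63 and 1.57 against 3.70, 13.2 and 4.73. It was at the edge in the hashtag 1 brain. None of the 10 was lower in every brain with a pseudocount of 0.5 or a rule sum of at least 200, and 1 was with summed UMIs. Cxcl2, a neutrophil attractant, averaged 3.77, 11.4 and 7.26 and differed by -0.10, -0.49 and 0.27.

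Outside the lists, genes past 2-fold in every brain included G0s2, an inhibitor of triglyceride breakdown, at 7.41, 4.08 and 2.17 per 10000 UMIs. Ifitm6 averaged 17.7, 8.85 and 11.4, with log2 differences of 1.75, 2.76 and 2.75. Hdc, which makes histamine, averaged 3.09, 1.54 and 1.99, and Lrg1 2.47, 1.81 and 1.03. Genes at least 2-fold lower included the complement gene C1qb at 3.18, 8.88 and 4.78 against 10.4, 31.0 and 24.7, and the T and NK cell chemokine Ccl5 at 1.23, 2.53 and 3.89 against 5.67, 14.1 and 14.9. The microglia genes Tmem119 and Fcrls were also lower, but the rule limited them.

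The 7 T cell markers were all at 0 in 54 of 60, 15 of 16 and 11 of 12 neutrophils of the brains with hashtags 1, 3 and 4, but the rule limited 5 of the 7, so this was largely set by the choice of cells. The 8 mast cell, basophil and eosinophil markers, which the rule did not use, were all at 0 in 57 of 60, 15 of 16 and 12 of 12. The summed 12 monocyte and macrophage markers had medians of 25.5, 67.1 and 53.5 per 10000 UMIs in the brains with hashtags 1, 3 and 4, with a range from 4.79 to 325, against 35.8, 130 and 116 in the other immune cells. The 6 choroid plexus markers, led by the free RNA of Ttr, had medians of 128, 126 and 117. Ttr was at 1000 or more in 8 neutrophils of the hashtag 1 brain and 1 of the hashtag 3 brain. Haemoglobin transcripts were at 100 or more in 1 neutrophil each of the hashtag 3 and hashtag 4 brains. The part of these transcripts in the gene differences was not tested.

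The neutrophils differed among themselves in granule transcripts. At least 3 of Mpo, Elane, Prtn3 and Ctsg were seen in 14 of 88 cells: 8 with hashtag 1, 5 with hashtag 3 and 1 with hashtag 4. Their summed level of these 4 genes had a median of 116 per 10000 UMIs and a range from 10.3 to 350, against a median of 0 in the other 74 cells. Their Camp, Ngp, Ltf and Lcn2 sum had a median of 490 in the hashtag 1 brain, against 595 in the other neutrophils there. The 8 cells were spread widely, with 2.87, 7.68 and 19.9 in 3 of them and 441 to 657 in the other 5. In the hashtag 3 brain the median was 21.7 against 156, with a range from 13.3 to 310. Their S100a8 and S100a9 sum had medians of 1577 and 378 in these brains. The single hashtag 4 cell had 350 of azurophil and 143 of specific transcripts, 75.4% of its hashtag counts from its own hashtag and 18.3% from hashtag 1.

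The elastase transcripts of the hashtag 4 brain came from cells with under 80% own hashtag. Its 5 neutrophils with at least 80% own hashtag all had 0 Elane. The 7 others averaged 33.1 per 10000 UMIs, with a median of 0 and a maximum of 210 in a single cell. In the hashtag 3 brain the means were 15.3 in 7 cells and 23.7 in 9 cells. In the hashtag 1 brain they were 9.34 in 47 and 15.2 in 13.

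**Figure D3:**
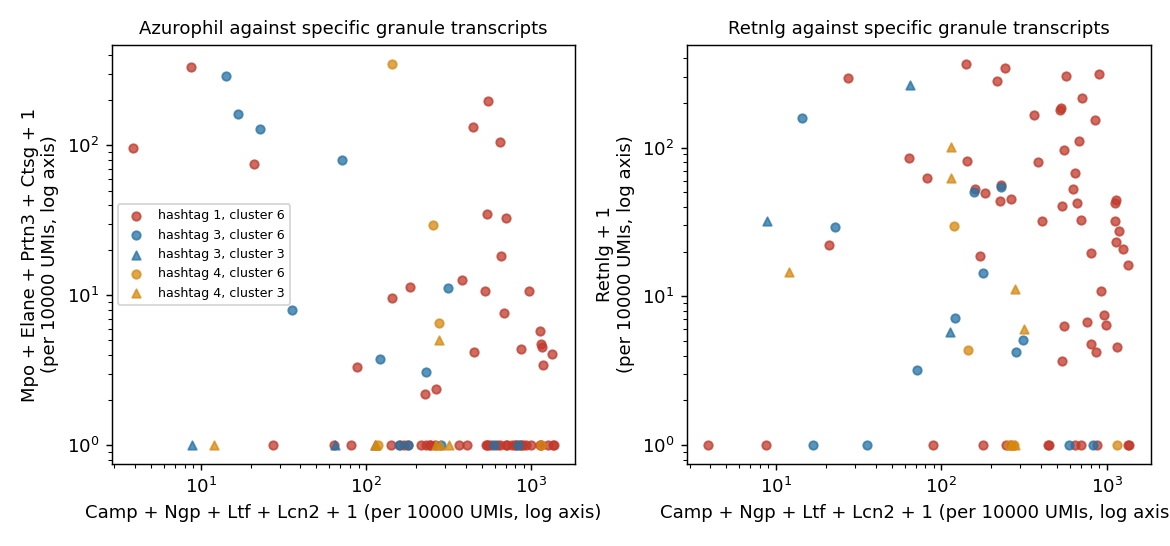
Each point is 1 of the 88 neutrophils, with color for the brain and shape for the deposited cluster; both axes are logarithmic, per 10000 UMIs plus 1. Left, azurophil against specific granule transcripts; right, Retnlg against specific granule transcripts, with Retnlg at 100 or more in 14 cells and at 0 in 22.

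Retnlg split the cells another way. It was at 100 or more in 14 cells, with a median of 238, and at 0 in 22 cells. The 14 cells had a median cell cycle sum (20 genes) of 28.6 per 10000 UMIs, against 62.4 in the 22. Their calgranulin sum, S100a8 plus S100a9, had a median of 1945 against 1129. With hashtag 1 the calgranulin medians were 1986 in 12 cells against 1177 in 13. With hashtag 3 the order was reversed, at 493 in 2 cells against 1294 in 4. The other 5 of the 22 cells came from the hashtag 4 brain. Across the 88 cells the Spearman correlation of Retnlg was -0.17 with the cell cycle sum and -0.23 with Fcnb. Fcnb correlated with the cell cycle sum at 0.51 and with the azurophil sum at 0.39. The azurophil sum correlated with the cell cycle sum at 0.49, and at 0.47 within the 60 cells of the hashtag 1 brain. The specific sum correlated with the calgranulin sum at 0.84, but all genes of both sums except Lcn2 belong to the rule. These cells share a pool and a total of 10000 per cell, which ties genes to each other, and the correlations are given as descriptions.

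Cell cycle genes were present in neutrophils of each brain that had them, and most in cluster 6. The 20-gene sum had medians of 63.6 in the hashtag 1 brain, 59.7 in 13 cluster 6 cells of the hashtag 3 brain and 63.3 in 5 of the hashtag 4 brain. In the 3 and 7 neutrophils of cluster 3 the medians were 22.2 and 22.6. The most abundant of the 20 genes, H2afz, Hmgb2 and Tubb5, averaged 16.7, 14.5 and 6.34 per 10000 UMIs with brains weighted equally. They make up a large part of the sum, and whether the cells were dividing was not tested. Against other immune cells none of the 20 genes was past 2-fold in every brain, with a list median of -0.08. Hmgb2, a chromatin protein of dividing and immature cells, averaged 20.03, 13.3 and 10.3 and differed by 0.00, 1.64 and 1.10.

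Cluster 3 held 10 of the 88 neutrophils, 3 with hashtag 3 and 7 with hashtag 4, and all 60 of the hashtag 1 brain were in cluster 6. The 7 included all 5 neutrophils of the hashtag 4 brain with at least 80% own hashtag, and the 5 cluster 6 cells of that brain had a median own share of 68.2% with 30.5% from hashtag 1. Interferon response genes were highest in these 7 cells. Their 20-gene sum ran from 17.1 through a median of 63.2 to 106 per 10000 UMIs, against medians of 12.5 in the cluster 6 cells of that brain and 5.94 in all neutrophils of the hashtag 1 brain. The 114 monocyte-like cells of the hashtag 4 brain, with at least 3 of 6 monocyte genes above 0, had a median of 48.4.

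Isg15, an interferon-induced ubiquitin-like protein, was seen in 6 of the 7 cells, with a median of 10.3 and a maximum of 22.6 per 10000 UMIs. Cxcl10, the interferon-induced chemokine named in the series title, was seen in 4 of the 7 with a mean of 10.1, from 24 UMIs. Over all neutrophils the shares with a UMI were 33.0% for Isg15 and 7.95% for Cxcl10, against 20.5% and 3.86% of choroid plexus-like cells (30.7% and 7.95% against 8.41% and 1.02% after thinning). In the neutrophils outside these 7 cells Cxcl10 came to 4 UMIs: 3 with hashtag 1 and 1 with hashtag 3. Il1b was seen in all 7, from 1.67 through 6.83 to 24.6. Their Camp ran from 10.95 through 95 to 176, while Fcnb and Elane were at 0 in all 10 cells of cluster 3.

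Transcripts of monocytes were also higher in the cluster 3 cells. The 12 monocyte and macrophage markers summed to medians of 132 in the 3 cells of the hashtag 3 brain and 75 in the 7 of the hashtag 4 brain, against 59.2 and 33.3 in the cluster 6 cells of the same brains. Ms4a7, a macrophage membrane gene, averaged 7.16 and 6.69 in the cluster 3 cells, and 0.16 and 0.00 in the cluster 6 cells. The 6.69 rests largely on a single cell at 40.97, since Ms4a7 had a median of 0 and a UMI in 3 of those 7 cells. Apoe averaged 60.5 and 42.1 against 25.5 and 9.65. The median UMI total was 2968.5 in the 10 cells of cluster 3 and 4697.5 in the 18 cluster 6 cells of these brains. The part of monocyte or macrophage RNA in their interferon and Il1b values was not tested.

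**Figure D4:**
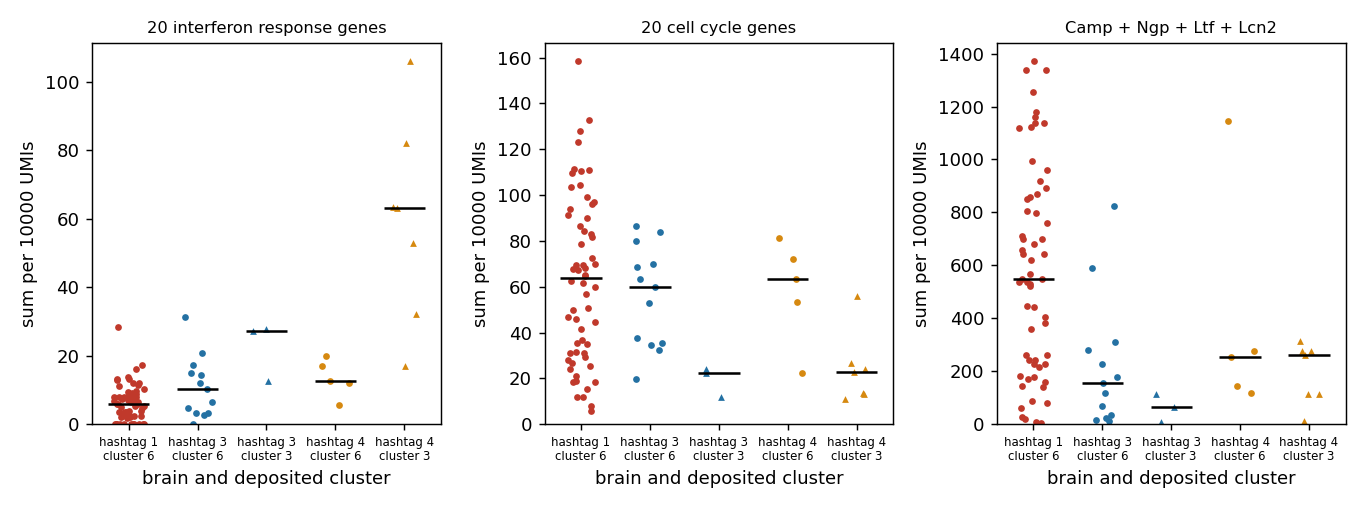
Sums per 10000 UMIs of 20 interferon response genes, 20 cell cycle genes and Camp, Ngp, Ltf and Lcn2 in each neutrophil, by brain and deposited cluster; bars are medians. The interferon sum is highest in the 7 cluster 3 cells of the hashtag 4 brain (median 63.2), and the cell cycle sum is lower in cluster 3 than in cluster 6 of both brains.

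Over all neutrophils of a brain, the interferon list had none of 20 genes past 2-fold in every brain and a median log2 difference of -0.50. Its summed level in neutrophils and in the other immune cells of the same brain had medians of 5.94 and 5.30 with hashtag 1, 12.4 and 19.98 with hashtag 3, and 26.0 and 35.9 with hashtag 4. The order of the brains was the same in both classes.

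The antibody tags were the measurement that the rule had not used. CD45 marks all leukocytes and CD11b, an integrin chain encoded by Itgam, marks neutrophils, monocytes and microglia. Their barcodes, read in the tag library to count each protein, are 15 bases long.
CD45: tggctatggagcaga
CD11b: tgaaggctcatttgt
The CD11b tag had medians of 3741.5, 6198 and 6166 counts in the neutrophils of the brains with hashtags 1, 3 and 4, against 447.5, 5345 and 4783 in the other immune cells. The neutrophil ranges ran from 373 to 14066 in the hashtag 1 brain, from 1217 to 9010 in the hashtag 3 brain and from 1784 to 11385 in the hashtag 4 brain. The medians were higher in 3 of 3 brains, and single cells overlapped in each. With cluster 6 neutrophils only, an alternative added after the data had been seen, the medians with hashtags 3 and 4 were 4706 and 3961, below those of the other immune cells, and the mean log2 difference over brains was 0.87 (exact permutation p = 1). The mean log2 difference was 1.21 (SD 1.60, n = 3; exact two-sided sign-flip permutation test, p = 0.25, adjusted p = 0.60 over 6 tags). With 3 brains the smallest p this test can give is 0.25, so no tag could pass.

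The size of the CD11b difference came from the hashtag 1 brain, at 3.06 on the log2 scale, against 0.21 and 0.37 in the others. In that brain the 37 precursor cells had a CD11b median of 91.0 and the 34 monocyte-like cells 2716. Against monocyte-like cells alone the mean difference over brains was 0.18. The Itgam transcript, at 0.86, 1.14 and 1.03 per 10000 UMIs, differed by 0.46, -0.45 and -0.00 on the log2 scale.

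**Figure D5:**
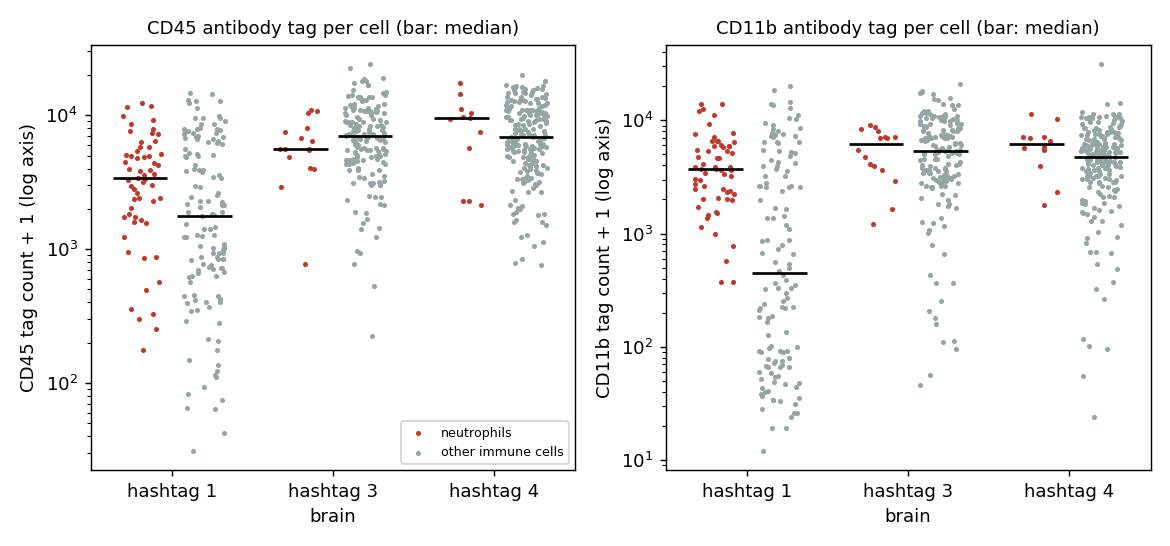
CD45 and CD11b tag counts plus 1 on a log axis, in neutrophils (red) and other immune cells (grey) of the brains with hashtags 1, 3 and 4; bars are medians. CD11b medians were 3741.5 against 447.5 in the hashtag 1 brain and close together in the others.

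The CD45 tag had neutrophil medians of 3389, 5623 and 9487 counts against 1771.5, 6981 and 6936 in the other immune cells, higher in 2 of 3 brains. The mean log2 difference was 0.36 (SD 0.63; exact sign-flip permutation p = 0.50, adjusted p = 0.60). The activation marker CD86 differed by -0.33, the T cell markers CD3e and CD4 by -0.71 and -0.18, and CD25 by 0.12, with exact permutation p-values from 0.50 to 0.75. Within the 60 neutrophils of the hashtag 1 brain, CD11b and CD45 counts rose and fell together (Spearman correlation 0.82). CD11b correlated at 0.43 with the specific granule sum and at -0.09 with the azurophil sum, and over all 88 cells at 0.17 and -0.20. In the 60 cells CD11b and CD45 also followed the UMI total, at 0.37 and 0.46. In that brain the 8 azurophil-positive cells had a CD11b median of 2117 counts, against 3818.5 in the 52 others.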

How the data were processed

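Gene values were deposited on a natural log scale, ln(1 + UMIs per 10000), since the unlogged values of every cell sum to 10000. The submitters' processing notes name Cell Ranger 2.1, Seurat 2.3.4 and mm10, with no roles. Tag and hashtag counts, made with CITE-seq-Count 1.3.4 per the labels, UMI totals, hashtag classes and cluster numbers were deposited in a cell table, with the mitochondrial share as a fraction made by the authors. How cells were filtered is not given in the sources used here. UMIs were recovered, and 99.8% of nonzero values came out whole within 0.01. Per brain the deposited UMI totals of the cells summed to between about 2529480 and about 26196400.

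Values were unlogged and averaged over the cells of a brain, which is the replicate. Differences are log2 of mean + 0.1 per 10000 UMIs in neutrophils over the same in the other cells of clusters 3 and 6, in brains with at least 10 neutrophils. They understate the change of low genes and carry no test. Tag medians + 1 were compared by an exact two-sided sign-flip permutation test over brains, which pairs both classes of a brain because they come from 1 animal, with Benjamini-Hochberg adjustment. Shares carry exact Clopper-Pearson 95% intervals. Python 3.11.15, numpy 2.4.6, pandas 2.3.3 and scipy 1.17.1 were used, and the counting of genes past 2-fold was tested on simulated data.

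The cells, gene lists and marker lists were chosen with earlier results of these data known. Named genes were all granule and calgranulin genes, the 3 most abundant of each other list with any gene past 2-fold in every brain, and up to 10 higher and 10 lower genes outside the lists with a level of at least 1. Upstream sequences and gene positions come from RefSeq.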

Additional observations from a re-analysis of the deposited data

Results flagged for a closer look

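Granule transcripts also appeared in cells that the comparisons did not use as neutrophils. Outside clusters 3 and 6, 24 of 4041 cells had at least 100 of the 5 granule genes per 10000 UMIs, with a median of 360. They were spread over clusters 1, 2, 4, 5, 7 and 9, with 8 in cluster 2, and 13 came from the hashtag 1 brain. The 4 cells of cluster 9 had a median of 1366 and a CD11b tag median of 4690.5. Within clusters 3 and 6, 52 cells were above the sum but outside the limits on T cell and microglia genes. Their summed microglia genes had a median of 15.3 per 10000 UMIs, against 0 in the neutrophils. Their UMI totals had a median of 4314.5, against 3748, and at least 80% own hashtag was found in 31 of them. The part of mixed droplets in these cells was not tested.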

How the results depend on the processing

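The share of neutrophils among immune cells moved from 31.25% to 50.5% in the hashtag 1 brain and from 0 to 9.30% in the hashtag 2 brain without the marker limits. With cells of at least 80% own hashtag it became 5.04% and 2.92% in the brains with hashtags 3 and 4. The CD45 tag difference turned to -0.24 as a share of the 6 tags and to -0.32 with cluster 6 neutrophils only. It turned to -0.38 against monocyte-like cells, some of which were above the granule sum and left out only by the marker limits. CD25 turned to -0.16 as a share of the tags. CD4 turned to 0.038 with cells of at least 80% own hashtag and to 0.027 without the hashtag 4 brain, where leaving out 1 brain at a time gave -0.36 to 0.027. The count of genes at least 2-fold higher was 23 with a pseudocount of 0.5, and 55 to 93 (65 without the hashtag 3 brain) when 1 brain was left out. The count of lower genes was 14 with that pseudocount, 207 with cluster 6 neutrophils only, 251 with at least 80% own hashtag, and 237 to 626 (347 without the hashtag 3 brain) when 1 brain was left out. Leaving out the hashtag 1 brain gave the 93 and 626, and raised the azurophil count from 1 to 6 of 9. The cause of these shifts was not tested, except that fewer brains make the count easier to reach. The planned gene count with at least 80% own hashtag and 10 neutrophils per brain was not run, since 1 brain would remain, and it was run with at least 5. Of the named gene levels, 88 moved by less than the spread between brains and 16 by more with at least 80% own hashtag. The values against monocyte-like cells, cluster 6 only and without marker limits were chosen after seeing the data. The depth, at a median of 3748 UMIs per neutrophil, limits what can be said of genes such as Cxcr2 and Csf3r, and 3 brains limit every tag test. The 3 deposited samples are the RNA, antibody and hashtag libraries of the same cells and share a single replicate number. These samples could therefore not be paired as replicates. Within brains, the gene differences and the tag test pair both classes of cells.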
